A study of Homo sapiens with 18 samples.

Results

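YAP (gene YAP1) and TAZ (gene WWTR1) are paralogous transcriptional coactivators that have no DNA-binding domain of their own and reach their target genes through TEAD transcription factors. The kinases of the Hippo pathway phosphorylate them and keep them out of the nucleus, and in epithelial cells their activity follows cell contact, cell shape and soluble factors of serum. In carcinoma cells they are known for driving genes of matrix, cytoskeleton and cell division, and several of their targets encode proteins that restrain the pathway in return.

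The samples described are RNA-seq libraries of A549 cells after knockdown of YAP, 6 of the 18 libraries of a study that lowered YAP or TAZ in the human non-small cell lung cancer lines A549 and H1299. A549 cells come from a lung adenocarcinoma of alveolar type, and they were grown in DMEM with fetal bovine serum. The 3 siYAP libraries came from cells that had received 30 nM of siRNA directed at YAP, as a SMARTpool (several siRNAs that share 1 target transcript). The 3 siControl libraries came from cells given the same amount of a control siRNA. All siYAP libraries had the same pool, so loss of YAP and other effects of the pool cannot be told apart. In both groups RNA was taken 48 h after transfection, and the cells had been without serum for the last 18 h, so that the comparison holds for serum-starved cells. The 6 libraries were chosen by line and siRNA in the sample labels, and every gene of the table was examined. The other 3 A549 libraries (siTAZ, the same protocol with a pool against TAZ) shared the fit, and the 6 siYAP and siControl libraries of H1299 served for a test of the difference between lines. H1299, grown in RPMI-1640, was kept in a table of its own, so line, medium and experiment go together. The labels do not say that replicates were separate cultures, so the p-values cover no more than the scatter among libraries, in part perhaps technical. In bulk RNA, fewer cells of a kind and less RNA per cell cannot be told apart.

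Assigned reads ranged from 10.7 to 45 M per library, and the libraries numbered 2 were by far the deepest (45 M for siYAP and 41.0 M for siControl). Keratin, aldo-keto reductase and aldehyde dehydrogenase transcripts typical of A549 were abundant, with KRT8 at 2799 to 3363 CPM, reads scaled to a fixed library total, in siYAP libraries and at 3017 to 3774 CPM in siControl libraries. CDKN2A, which A549 has lost, was not among the genes listed for this line and stood at 72.9 to 118 CPM in H1299. The lung lineage genes NKX2-1 and SFTPB were not listed, EPCAM did not pass 4.49 CPM, and NAPSA did not pass 2.53 CPM. Of 17 markers of endothelium, fibroblasts and blood cells 9 were listed, with summed levels of 13.7 to 18.6 CPM in siYAP and 10.9 to 16.1 CPM in siControl libraries, most of it COL1A1 and CD14. The first principal component of the 9 A549 libraries (48.0% of the variance) separated replicate 3 of every group from replicates 1 and 2. Libraries of different groups with the same number deviated together (correlations of 0.384 to 0.729, against -0.550 to 0.279 for different numbers). The fit therefore held the replicate number, the batch marked by the library prefix, as a block.

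Knockdown lowered the YAP1 transcript in every library. YAP1 (chromosome 11, 102110461 to 102233423, plus strand, GRCh38) stood at 17, 15.5 and 19.5 CPM in the siYAP libraries, against 59.6, 56.9 and 58.3 CPM in the siControl libraries. The siYAP values lay far below all control values, at 29.7% of the control mean, and the 3 pairs lay close together. The log2 fold change, siYAP minus siControl throughout, was -1.78 ± 0.06 (SE, edgeR's quasi-likelihood test, adjusted p = 3.05e-23, n = 3 libraries per group, as in every comparison below). WWTR1, the TAZ gene, had 158, 162 and 153 CPM under siYAP and 174, 180 and 176 CPM under siControl. All siYAP libraries lay below all controls, at a log2 value of -0.16 ± 0.05 that did not pass the test (adjusted p = 0.0846). Since the counting is not stated to use strand, reads of YAP1 and of WWTR1 cannot be told apart from those of transcripts annotated antisense to them.

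**Figure D1:**
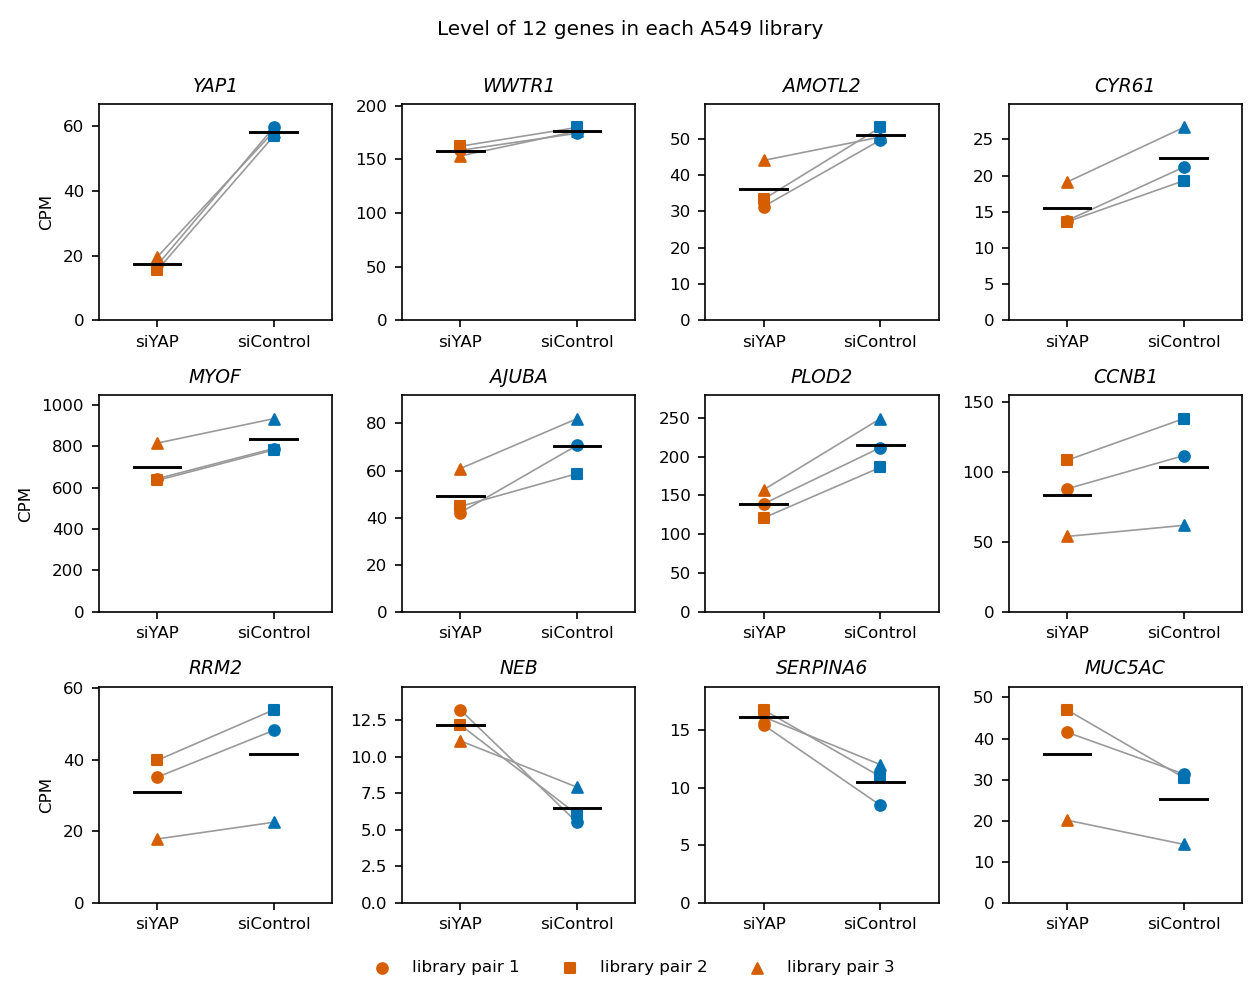
CPM of 12 genes in each siYAP library (orange, left) and siControl library (blue, right) of A549. Symbols and grey lines mark libraries with the same replicate number, and black bars the group means. YAP1 had 15.5 to 19.5 CPM under siYAP and 56.9 to 59.6 CPM under siControl, while CCNB1 and RRM2 differed more between replicate numbers than between siRNAs.

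Across the transcriptome the YAP knockdown changed many genes by small amounts. Of 16008 genes tested, 909 passed an adjusted p of 0.05, which is 5.68%: 401 were higher (2.5%) and 508 lower (3.17%) in siYAP cells. Their median change was 0.24 in size (log2), 56 of them changed at least 1.5-fold, and 15 at least 2-fold. Of these 56, 46 were higher and 10 lower. Among protein-coding genes of at least 5 CPM that moved alike in each pair, only NEB, HABP2 and SERPINA6 rose at least 1.5-fold. Under the same conditions YAP1, XDH, PLOD2, MCM10, COMMD8, EIF4EBP2 and MARCH4 fell at least 1.5-fold. Most of the 46 thus had fewer reads, were not protein-coding or did not move alike in each pair. Of the 909, 96.0% moved in the same direction in all 3 same-numbered pairs, against 37.2% of all genes tested. The siYAP and siControl libraries did not overlap for 30.1% of the genes called, against 7.20% of all genes tested. The median gene had a log2 value of 0.00.

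The number of genes called rested on the block and on the deepest pair of libraries. Without the replicate block, YAP1 was the only gene called, while 3015 genes had an unadjusted p below 0.05 with it. Leaving out siYAP 2 left 51 higher and 113 lower genes, leaving out siControl 2 left 103 and 195, leaving out siYAP 1 left 180 and 333, and leaving out siYAP 3 left 209 higher genes. Without siControl 1, 234 genes were higher. Thinning every library to the smallest total left 168 higher and 280 lower genes, and DESeq2's Wald test with the same design called 92 and 271. In each of the 6 fits without 1 library, 31 of the higher and 92 of the lower genes were called, 123 genes that the text calls held in every fit. All but GJB1 and PRODH2 of these also passed DESeq2's test. The deepest siYAP and siControl libraries share the number 2, so depth and replicate number cannot be told apart. This set was defined after the data were seen, and its fits did not include removal of a whole replicate number. Without number 2 of every group, genes of this set such as CCND1 and FLNA were not called.

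**Figure D2:**
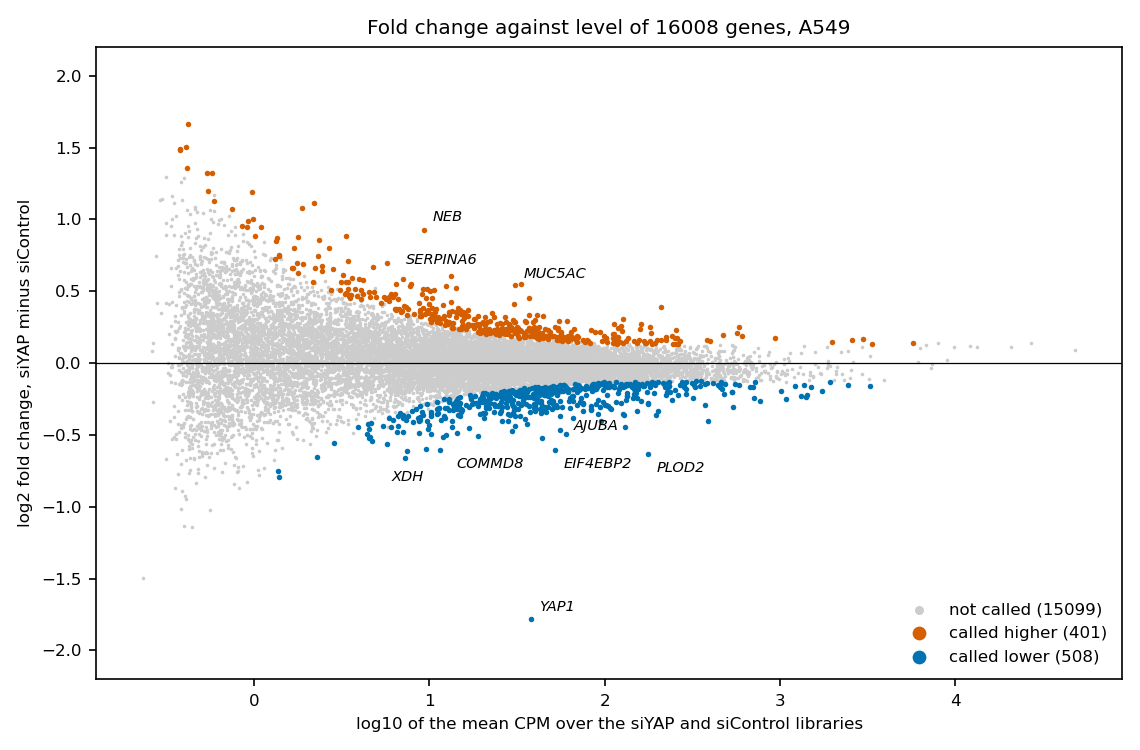
Log2 fold change (siYAP minus siControl) of 16008 genes against the log10 of their mean CPM over the 6 libraries. The 401 genes called higher are orange, the 508 called lower blue and the others grey; YAP1 lies alone at -1.78, and most genes called lie within 0.5 of 0.

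Beside YAP1 the large decreases included PLOD2, EIF4EBP2 and COMMD8. PLOD2 is a lysyl hydroxylase that modifies collagen for crosslinking (chromosome 3, 146069440 to 146163653, minus strand). PLOD2 stood at 139, 121 and 157 CPM in siYAP libraries and at 212, 186 and 249 CPM in siControl libraries. No siYAP library reached the lowest control, and each pair fell by about the same proportion. The log2 fold change was -0.63 ± 0.04 (adjusted p = 1.36e-13), held in every fit. EIF4EBP2, which binds eIF4E and represses cap-dependent translation, had 35.2, 37.4 and 52.0 CPM under siYAP and 55.3, 58.0 and 74.6 CPM under siControl. Its siYAP libraries lay below all controls, with replicate 3 highest in both groups (-0.60 ± 0.05, adjusted p = 2.34e-09). COMMD8, a member of the COMMD protein family that works in endosomal sorting, had 9.15, 10.0 and 7.83 CPM against 13.7, 14.6 and 13.4 CPM in controls (-0.60 ± 0.09, adjusted p = 1.52e-05).

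Other large decreases were in genes with fewer reads. XDH, xanthine dehydrogenase of purine breakdown, had 3.21, 4.44 and 8.98 CPM in siYAP and 5.84, 7.21 and 13.6 CPM in siControl libraries, so that the groups overlapped although every pair fell (-0.66 ± 0.12, adjusted p = 0.000407). GNB4, a G protein beta subunit, had 10.3, 10.8 and 9.26 CPM against 13.5, 14.1 and 16.7 CPM in controls, with no overlap (-0.50 ± 0.08, adjusted p = 0.000176). Both were held in every fit. MARCH4, a membrane-bound ubiquitin ligase (-0.60), and SKA3, a subunit of the kinetochore SKA complex (-0.56), lost the call without siControl 2, at -0.41 and -0.61. NID2, the basement membrane protein nidogen 2 (-0.49), and the replication factor MCM10 (-0.61) lost it without siYAP 2 or without siControl 2, NID2 at -0.33 and -0.21 and MCM10 at -0.41 and -0.47.

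Further lower genes held in every fit were named after their values were seen. TNFRSF21, a death receptor, had 114, 93.3 and 127 CPM in siYAP and 163, 136 and 152 CPM in siControl libraries, with all siYAP libraries lower (-0.45 ± 0.05, adjusted p = 2.63e-08). GREM1, a secreted BMP antagonist (-0.47 ± 0.06), and TFPI2, a secreted protease inhibitor (-0.40 ± 0.05), were lower too. Of genes of the secretory and lysosomal systems, CNIH1, a cargo receptor for export from the endoplasmic reticulum, had 119, 109 and 112 CPM against 146, 143 and 148 CPM in controls (-0.36 ± 0.04), and OSTM1, a lysosomal membrane protein, 60.2, 51.9 and 60.7 CPM against 74.4, 72.2 and 76.1 CPM (-0.38 ± 0.05). In both genes the 2 groups were apart. CFL2 and TWF1, which bind actin and turn filaments over, both changed by -0.32, and MYO5A, a myosin motor that carries vesicles, by -0.29. STK38, an NDR kinase related to the LATS kinases of the Hippo pathway, had 63.7, 58.7 and 65.8 CPM against 76.7, 72.3 and 80.9 CPM in controls (-0.29 ± 0.04, adjusted p = 5.71e-05).

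NEB, which encodes the large sarcomere protein nebulin (chromosome 2, 151485336 to 151734487, minus strand), rose most among protein-coding genes of at least 5 CPM that moved the same way in each pair. It stood at 13.2, 12.2 and 11.1 CPM in siYAP libraries and at 5.51, 6.06 and 7.92 CPM in siControl libraries, with no overlap (0.93 ± 0.10, adjusted p = 1.2e-07). SERPINA6, the plasma carrier of corticosteroids, had 15.5, 16.8 and 16.2 CPM against 8.49, 11 and 12 CPM in controls (0.61 ± 0.08, adjusted p = 8.15e-06), again apart. Both held in every fit. HABP2, a plasma serine protease that binds hyaluronan, had 7.93, 6.54 and 6.35 CPM under siYAP and 5.77, 3.68 and 3.96 CPM under siControl (0.70 ± 0.12, adjusted p = 0.000332), and lost its call without siControl 2, at 0.47.

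NTS, the precursor of the peptide neurotensin, and MUC5AC, a gel-forming mucin of the airway, rose by similar proportions within each pair but varied widely between replicate numbers. NTS had 48.7, 62.7 and 7.83 CPM in siYAP and 31.6, 43.7 and 5.48 CPM in siControl libraries. MUC5AC had 41.5, 47.0 and 20.1 CPM against 31.4, 30.5 and 14.2 CPM in controls. Replicate 3 was lowest in both groups for both genes, so that the groups overlapped while the fitted change was 0.55 ± 0.06 for each. HLA-DMB, a chaperone of antigen loading (0.53 ± 0.09), was also lowest in replicate 3 of both groups. It had 21.9, 18.7 and 4.52 CPM against 12.3, 14.5 and 2.59 CPM in controls, and rose least in pair 2. FGB, the fibrinogen beta chain, TMEM59L, a brain-enriched membrane protein, ADCY5, an adenylate cyclase, the adhesion molecule CEACAM7, the potassium channel gene KCNJ16 and SSPO, a matrix glycoprotein, were called higher at 0.52 to 0.58. All 6 lost their calls without siYAP 2 and without siControl 2, at 0.30 to 0.57.

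Of the 31 higher genes held in every fit, 6 more were singled out after their values were seen. AGR2, a protein disulfide isomerase needed for mucin folding, had 320, 256 and 137 CPM in siYAP libraries and 252, 190 and 103 CPM in siControl libraries, higher in each pair (0.39 ± 0.04, adjusted p = 5.23e-08). CDH17, a cadherin of the intestine and liver, had 199, 175 and 157 CPM against 156, 143 and 141 CPM in controls, without overlap (0.27 ± 0.04, adjusted p = 6.38e-05). FGL1, a fibrinogen-like liver protein, rose by 0.41 ± 0.06, TM4SF4, a tetraspanin-like membrane protein, by 0.34 ± 0.06, and CYP4F3, a leukotriene hydroxylase, by 0.27 ± 0.04. ITGAX, an integrin of myeloid cells, had 40.2, 30.2 and 57.7 CPM against 28.7, 22.1 and 42.4 CPM (0.45 ± 0.05, adjusted p = 5.15e-07). The leukocyte markers PTPRC and CD3E were not among the genes listed, and CD68 did not pass 0.687 CPM in these libraries. The myeloid marker CD14 stood at 5.14 to 7.89 CPM in siYAP and at 4.96 to 7.90 CPM in siControl libraries, and LYZ, lysozyme, was called higher below 1 CPM. The part of such cells in the rise of ITGAX was not tested.

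Which of the known YAP and TAZ targets changed under the YAP pool in this line was examined with a signature of 22 genes. Of these, 8 were lower (36.4%, against 3.17% of all genes) and none higher. The list median was -0.11, against 0.00 for all genes. AMOTL2, an angiomotin that binds YAP and restrains it, had 31.3, 33.3 and 44.0 CPM under siYAP and 49.6, 53.1 and 50.5 CPM under siControl, with no overlap (-0.52 ± 0.06, adjusted p = 5.1e-07). CYR61, a secreted matricellular protein, had 13.8, 13.6 and 19.1 CPM against 21.2, 19.3 and 26.6 CPM in controls, just without overlap (-0.51 ± 0.08, adjusted p = 2.97e-05). MYOF, a ferlin of membrane repair, was also lower, at 642, 634 and 815 CPM against 789, 782 and 933 CPM in controls. Its groups overlapped across replicate numbers and fell in each pair (-0.26 ± 0.04, adjusted p = 4.88e-05). These 3 held in every fit.

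CTGF, the matricellular neighbour of CYR61 in the CCN family, had 11.1, 9.73 and 21.4 CPM in siYAP and 15.6, 13.6 and 29.3 CPM in siControl libraries. Each pair was lower by a like proportion, while replicate 3 lay farther above replicates 1 and 2 than the knockdown moved the gene (-0.45 ± 0.10, adjusted p = 0.00454). The call was lost without siYAP 2, siControl 2 or siControl 3, at -0.44 to -0.35, and by DESeq2's test (adjusted p = 0.369). TGFB2, a TGF-beta ligand (-0.31), lost its call without siControl 2, at -0.23. The calls of the muscle ankyrin repeat gene ANKRD1 (-0.31), the Hippo kinase LATS2 (-0.24) and ARHGEF17, a guanine nucleotide exchange factor (-0.20) were each lost in 4 or 5 of the 6 fits, at -0.39 to -0.17. With all libraries but 1, between 3 (without siControl 2) and 7 of the 22 genes were lower, 5 without siYAP 2, and DESeq2 called 4.

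The 14 signature genes that did not pass had values from -0.23 to 0.22. PTPN14, a phosphatase that binds YAP, had 19.3, 25.5 and 28.1 CPM under siYAP and 28.4, 28 and 32.1 CPM under siControl (-0.23 ± 0.08, adjusted p = 0.0615). The receptor tyrosine kinase AXL (-0.11), the kinase NUAK2 (-0.14), DOCK5 (-0.10) and CRIM1 (-0.10) had values below 0. CCDC80 had 51.4, 47.3 and 50.5 CPM against 46.1, 44.6 and 45.6 CPM, all siYAP libraries above all controls, at 0.13 ± 0.05 (adjusted p = 0.147). IGFBP3 (-0.0016), GADD45A (0.01), FJX1 (-0.02), ASAP1 (0.03), NT5E (0.04), FOXF2 (-0.04) and F3 (-0.05) lay within 0.05 of 0. RBMS3, below 2 CPM in every library, had 0.22 ± 0.30.

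TEAD factors bind a sequence that holds GGAATG, and the upstream 250 bases of the genes lowered were searched for it on both strands. Of the 12 largest or most abundant decreases, 11 had a promoter sequence (RefSeq, GRCh38.p14), and the letters were found at YAP1, whose transcript was the siRNA target, and at GNB4. CTGF, a signature gene chosen after its values were seen, is shown beside GNB4 because its window held the letters 3 times. The windows of AMOTL2, AJUBA and PLOD2, looked up in the same way, did not hold them, and CYR61 had no promoter sequence. Capitals mark GGAATG, and each line reads in the direction of transcription up to the base before the gene start. GNB4 is read from the minus strand of chr3:179451471-179451720 and CTGF from the minus strand of chr6:131951373-131951622.
GNB4: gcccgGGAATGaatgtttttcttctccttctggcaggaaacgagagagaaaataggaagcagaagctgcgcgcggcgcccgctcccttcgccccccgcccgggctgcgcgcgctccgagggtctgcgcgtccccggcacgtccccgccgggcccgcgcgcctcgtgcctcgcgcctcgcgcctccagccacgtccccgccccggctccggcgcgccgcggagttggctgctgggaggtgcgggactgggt
CTGF: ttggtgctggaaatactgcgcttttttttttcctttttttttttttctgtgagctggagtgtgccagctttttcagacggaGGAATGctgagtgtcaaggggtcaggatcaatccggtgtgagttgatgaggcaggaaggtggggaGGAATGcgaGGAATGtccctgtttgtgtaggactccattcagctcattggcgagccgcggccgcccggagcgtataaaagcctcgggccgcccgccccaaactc

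The GNB4 match ends 240 bases before the gene start, and the CTGF matches end 164, 99 and 90 bases before it. Over all protein-coding genes tested with a sequence (10733, 81.2% of them), 9.28% held GGAATG in this window. Of the 414 genes called lower with a sequence, 11.6% did. An E2F motif, counted wherever the window held TTCCCGC or else the spelling TTGGCGC or else the spelling TTCGCGC or else the spelling TTGCCGC, was in 21.3% of the lower genes and 17.4% of all, the CHR letters TTTGAA of late cell cycle genes in 15.9% and 8.42%, and CCAAT in 45.4% and 34.5%. Without the members of the mitosis and replication lists below, the shares among the lower genes were 11.4% for GGAATG, 18.8% for E2F, 13.3% for CHR and 40.4% for CCAAT. A match is a string of letters and no proof of binding. Fewer than 80% of the higher genes had a sequence (75.2%), so their share is not given.

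The partners and regulators of YAP moved with it only in part. Of 7 tested TEAD factors and cofactors, WWTR1 among them, 2 were lower (28.6%, against 3.17% of all genes) and none higher. The list median was -0.03. TEAD1, a DNA-binding partner of YAP, had 119, 114 and 103 CPM in siYAP and 139, 123 and 122 CPM in siControl libraries, with no overlap (-0.18 ± 0.04, adjusted p = 0.00709). TEAD4 had 13.7, 13.7 and 9.66 CPM against 16.1, 17.5 and 11.8 CPM in controls, lower in each pair (-0.31 ± 0.07, adjusted p = 0.00874). TEAD1 lost its call without siYAP 1, at -0.16, and TEAD4 without siYAP 2 or siControl 2, at -0.30 and -0.23. TEAD2 (-0.03), TEAD3 (0.10) and the cofactors VGLL3 (0.08) and VGLL4 (0.04) did not pass.

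Of 23 Hippo kinases and upstream regulators 7 were lower (30.4%, against 3.17% of all genes) and none higher (list median -0.11). Those that fell most are scaffold proteins that bind the kinases or YAP at junctions. AJUBA, a LIM protein that holds LATS kinases at junctions (chromosome 14, 22971174 to 22982642, minus strand), had 42.1, 44.7 and 60.8 CPM under siYAP and 70.7, 58.7 and 82.1 CPM under siControl. Replicate 3 under siYAP lay just above replicate 2 of the controls, and each pair fell (-0.49 ± 0.05, adjusted p = 4.62e-08). WTIP, its paralog, had 8.21, 10.1 and 17.4 CPM against 15.4, 13.7 and 21.8 CPM in controls (-0.49 ± 0.08, adjusted p = 0.000129). WWC1, the scaffold KIBRA, had 56.0, 59.6 and 58.0 CPM against 65.8, 71.1 and 68.7 CPM, without overlap (-0.24 ± 0.05, adjusted p = 0.00147). AJUBA, WTIP and AMOTL2 held in every fit. WWC1 lost its call without siControl 2, at -0.19, and FRMD6, LATS2 and WWC2 (-0.28 to -0.22) lost theirs in 4 fits each, at -0.36 to -0.17, so that 4 members were lower without siControl 2.

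Cell division genes moved together. All 48 tested genes of the mitosis list had values below 0. Of them 36 were called lower (75%, against 3.17% of all genes) and none higher, and the list median was -0.27 against 0.00 for all genes. Within pairs the median was -0.34, -0.24 and -0.20. All 46 genes of the DNA replication list were below 0 as well, with 26 called lower (56.5%) and none higher. The median was -0.26, with pair medians of -0.23, -0.27 and -0.14. The size was small, from -0.38 to -0.05 in the mitosis list. Both lists lay below the same-numbered controls under siTAZ too, so the fall was not seen with the YAP pool alone. The mean log2 CPM of the mitosis list was 4.79, 5.175 and 3.998 under siYAP and 4.895, 5.223 and 3.985 under siTAZ. Under siControl it was 5.144, 5.404 and 4.193. The replication list had 4.329, 4.382 and 3.538 under siYAP and 4.322, 4.338 and 3.506 under siTAZ. Under siControl it had 4.58, 4.672 and 3.685.

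Of the mitosis genes, CCNB1, the cyclin that starts mitosis, stood at 87.9, 108 and 53.8 CPM in siYAP libraries and at 112, 138 and 61.7 CPM in siControl libraries. MKI67, the nuclear marker of cycling cells, stood at 158, 194 and 83.1 CPM and at 203, 230 and 94.1 CPM. In both, replicate 3 had the lowest level of either group, the groups overlapped, and every pair fell (CCNB1 -0.31 ± 0.05, adjusted p = 3.49e-05; MKI67 -0.27 ± 0.04, adjusted p = 8.32e-05). PRC1, which bundles the spindle midzone (-0.30), ECT2, the exchange factor that starts cytokinesis (-0.29), KIF2C, a kinesin that shortens microtubules at kinetochores (-0.38), the mitotic kinase AURKA (-0.28) and its activator TPX2 (-0.29) were lower too. So were FOXM1, the transcription factor of mitotic genes (-0.32), and TOP2A, the topoisomerase that separates chromosomes (-0.25). Together with ANLN, CCNB2, CENPF and KIF23 these 13 genes held in every fit.

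Of the replication genes, RRM2, a subunit of the reductase that makes deoxynucleotides, had 35.1, 39.8 and 17.8 CPM in siYAP and 48.2, 54.0 and 22.5 CPM in siControl libraries (-0.43 ± 0.05, adjusted p = 1.52e-06). MCM5, a subunit of the replicative helicase, had 29.7, 35.7 and 15.4 CPM against 40.0, 46.8 and 18.1 CPM in controls (-0.37 ± 0.06, adjusted p = 8.32e-05). Here too each pair fell and replicate 3 was lowest in both groups. RRM1 (-0.26) and MCM4 (-0.27) also held in every fit. The helicase subunit MCM7 (-0.27) lost its call without siYAP 2, at -0.23, and TK1, thymidine kinase (-0.32), the licensing factor CDC6 (-0.41) and DTL (-0.45) without siYAP 2 or siControl 2, at -0.40 to -0.23.

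The counts in both lists depended on the deepest libraries. Without siYAP 2, 16 mitosis and 5 replication genes were called, without siControl 2, 22 and 7, and with DESeq2's test 23 and 11. The list medians over the 6 fits were -0.29 to -0.24 for mitosis and -0.28 to -0.19 for replication. Without the block the medians were -0.28 and -0.24 and none of the genes was called.

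**Figure D3:**
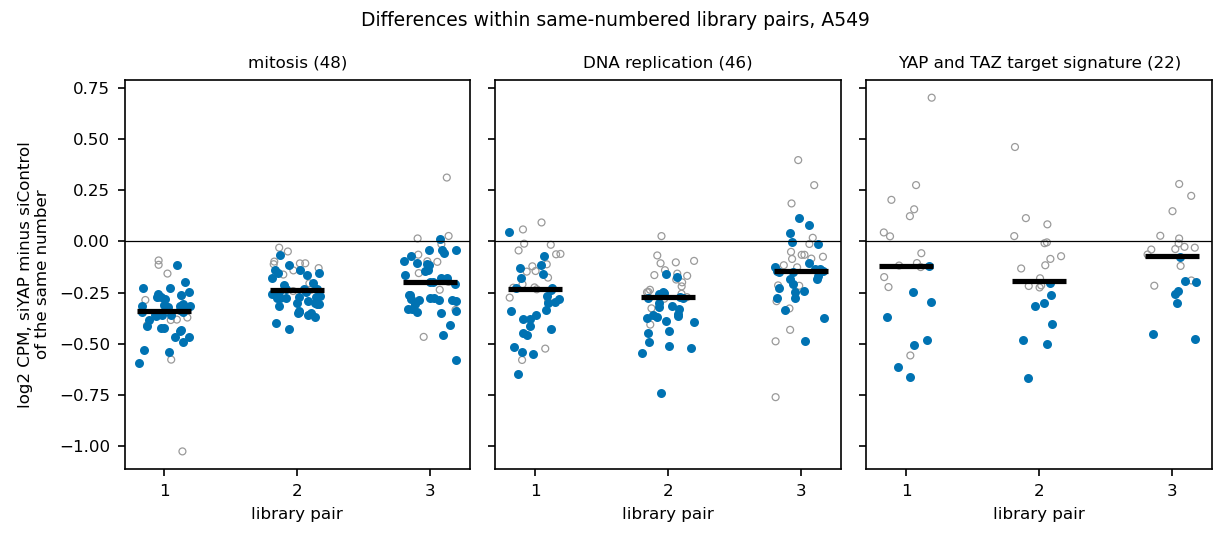
Difference in log2 CPM (prior count 2) between the siYAP and siControl libraries of the same number, 1 point per gene, for the mitosis, DNA replication and YAP and TAZ target lists; blue points are genes called lower, open grey points the others, and black bars the medians. The mitosis medians were -0.34, -0.24 and -0.20, and the replication median of pair 3 was -0.14.

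Other parts of the cycle machinery followed less evenly. Of 21 cyclins, CDK partners and E2F factors of G1 and S phase 8 were lower (38.1%, against 3.17% of all genes). None was higher, and the list median was -0.20. CCND1, cyclin D1, differed from the mitotic genes in being highest in replicate 3: it had 191, 200 and 268 CPM in siYAP and 217, 233 and 310 CPM in siControl libraries, lower in each pair (-0.20 ± 0.04, adjusted p = 0.000634), and held in every fit. CDC25A, the phosphatase that activates CDK2, had 4.53, 3.81 and 3.26 CPM against 6.23, 5.77 and 4.57 CPM in controls, without overlap (-0.54 ± 0.12, adjusted p = 0.00583). It lost its call without siYAP 2 or siControl 2, at -0.42 and -0.57, as did 6 other genes of the list in 1 or more of the fits, so that 1 gene was called without siYAP 2 and 2 without siControl 2. Of 24 recombination and Fanconi repair genes 6 were lower (25%, against the same 3.17%, list median -0.21). FANCI, which marks crosslinks for repair, was called in every fit (-0.37 ± 0.05, adjusted p = 5.89e-06). BRCA1 (-0.25), FANCD2 (-0.29) and the helicase BLM (-0.41) lost their calls without siYAP 2 and without siControl 2, at -0.46 to -0.21, and 1 gene remained in each case.

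Inhibitors of the cycle mostly did not pass (16.7% called, against 5.68% of all genes). CDKN1A, the inhibitor p21, had 267, 303 and 658 CPM under siYAP and 293, 339 and 680 CPM under siControl, with replicate 3 highest in both groups (-0.11 ± 0.04, adjusted p = 0.0778). CDKN1C, the inhibitor p57, was the 1 gene of 6 to pass and was higher, at 2.17, 1.93 and 3.09 CPM against 1.19, 1.30 and 0.99 CPM in controls (0.88 ± 0.21, adjusted p = 0.00724). It lost its call without siYAP 2, siYAP 3 or siControl 3, at 0.68 to 1.05. Of 16 BCL2 family genes 1 was higher and 1 lower (12.5% called, against the same 5.68%). BBC3, a pro-apoptotic member, was higher (0.21) and lost its call in 5 of the fits, at 0.14 to 0.27. MCL1, a short-lived survival protein, was lower at 146, 136 and 137 CPM against 169, 165 and 162 CPM in controls, with no overlap (-0.24 ± 0.04, adjusted p = 0.000129), held in every fit.

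**Figure D4:**
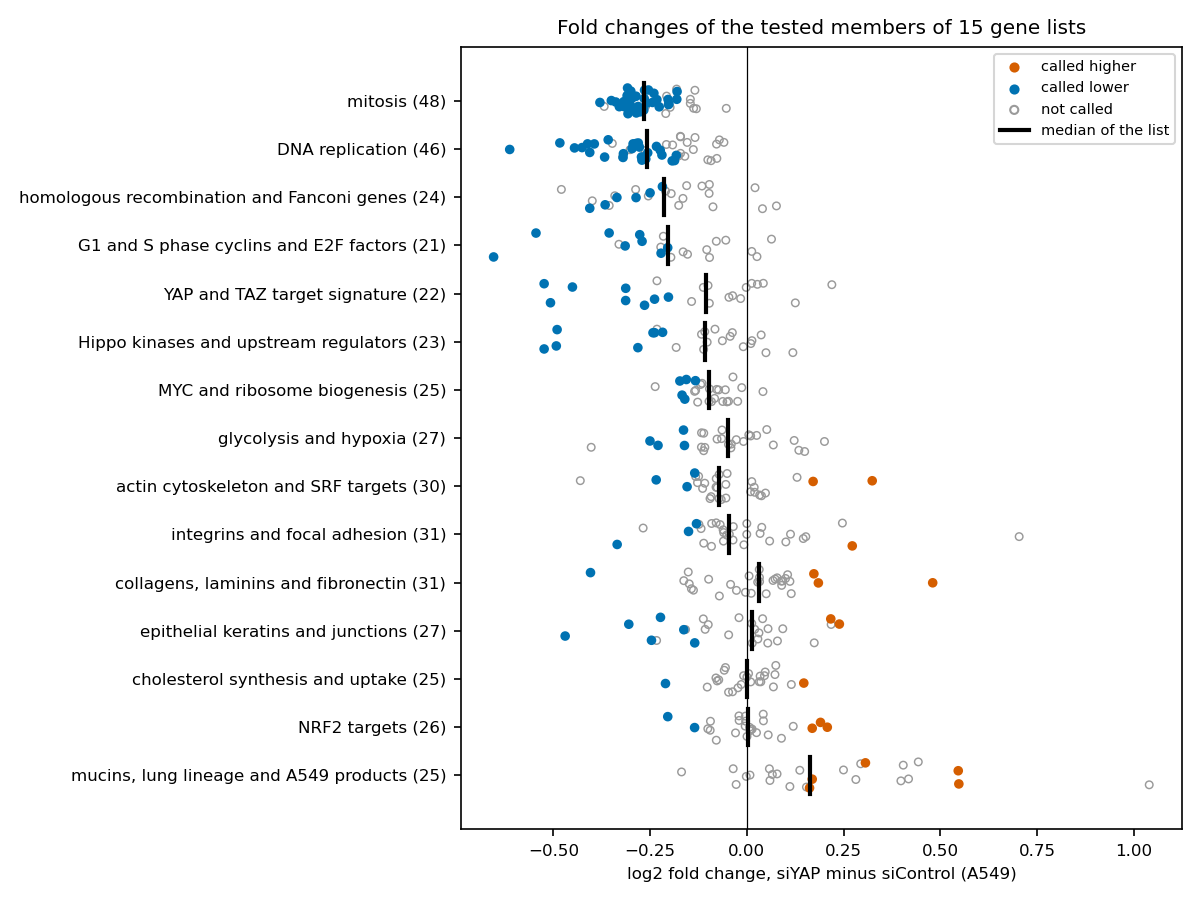
Log2 fold change (siYAP minus siControl) of every tested member of 15 gene lists, with the number tested in brackets; filled points were called higher (orange) or lower (blue), open points were not called, and black bars are list medians. All 48 mitosis and 46 replication genes lie left of 0, and the mucin and lung list has a median of 0.16.

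Keratins fell while junction genes did not share one direction. Of 27 keratin and junction genes 6 were lower, all keratins, and 2 higher, with a list median of 0.01. The share called was 29.6%, against 5.68% of all genes. KRT81, a hair-type keratin with near-identical neighbours that could share its reads, had 482, 561 and 406 CPM in siYAP and 602, 740 and 463 CPM in siControl libraries (-0.31 ± 0.04, adjusted p = 1.19e-05). KRT80 had 20.9, 26.2 and 28 CPM against 28.9, 39.0 and 34.9 CPM in controls, without overlap (-0.47 ± 0.07, adjusted p = 2.99e-05). CLDN2, a pore-forming claudin, was higher in all siYAP libraries, at 185, 164 and 165 CPM against 148, 143 and 142 CPM (0.24 ± 0.04, adjusted p = 0.000201). These 3 held in every fit. KRT7 (-0.25), KRT18 (-0.22), KRT8 (-0.16) and KRT19 (-0.13) were lower and CDH1, E-cadherin, higher (0.22), and each lost its call without siYAP 2 and 1 to 3 other libraries, at -0.23 to -0.11 for the keratins and 0.17 to 0.21 for CDH1. Without siYAP 2, 2 keratins and 1 junction gene were called.

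Of 25 tested genes of mucins, lung lineage and other products of A549 cells 5 (20%) were higher and none lower, against 2.5% higher among all genes. The values of 21 lay above 0 and of 4 below it, and the median was 0.16, with 0.18, 0.14 and 0.21 within pairs. Beside MUC5AC these were MUC5B, its neighbour on chromosome 11, FGB, CEACAM6 and ALDH3A1. MUC5B had 141, 179 and 104 CPM under siYAP and 127, 130 and 87.1 CPM under siControl, higher in each pair (0.31 ± 0.05, adjusted p = 0.000129), and lost its call without siControl 2, at 0.18. ALDH3A1, an aldehyde dehydrogenase, had 3164, 3419 and 2903 CPM against 2724, 3107 and 2610 CPM, and CEACAM6, an adhesion molecule, 438, 500 and 277 CPM against 340, 468 and 270 CPM. Their changes of 0.17 and 0.16 were lost in 5 of the 6 fits (0.07 to 0.20), and 1 gene of the list was called without siControl 2 and 2 without siYAP 2. The list lay above the controls under siTAZ too. Its mean log2 CPM was 4.53, 4.59 and 4.10 under siYAP and 4.59, 4.59 and 4.16 under siTAZ, against 4.35, 4.36 and 3.84 under siControl.

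Of the actin and SRF genes 16.7% were called and of the integrin and focal adhesion genes 12.9%, against 5.68% of all genes. CAVIN1, which coats caveolae, was lower in all siYAP libraries, at 178, 167 and 192 CPM against 222, 213 and 242 CPM in controls (-0.34 ± 0.04, adjusted p = 5.1e-07, held in every fit). It was 1 of 3 lower genes among 31 integrin and focal adhesion genes, with TNS3 (-0.15) and VCL, vinculin (-0.13), while TNS1 was higher (0.27). FLNA, the filamin that crosslinks actin, had 1179, 1092 and 1627 CPM under siYAP and 1479, 1332 and 1726 CPM under siControl, lower in each pair (-0.23 ± 0.04, adjusted p = 0.000608, held in every fit). In the list of 30 actin and SRF genes TPM4 (-0.15) and TPM1 (-0.13) were also lower, and ACTA2 (0.32) and RHOB (0.17) higher. TNS3, VCL, TNS1, TPM4, TPM1, ACTA2 and RHOB each lost the call in 2 to 6 fits (at -0.18 to -0.08 and 0.12 to 0.28), siYAP 2 among them for each, and 1 gene of either list was called without that library.

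Matrix genes went both ways, and 12.9% of the collagen, laminin and fibronectin list were called, against 5.68% of all genes. Of 31 collagens, laminins and adhesive glycoproteins 3 were higher, FN1, fibronectin (0.17), VTN, vitronectin (0.18) and COL1A1 (0.48), and 1 was lower, COL12A1 (-0.40). None of these 4 was called without siYAP 2 or without siControl 2, and where calls were lost the values were 0.13 to 0.48 and -0.42 to -0.35. COL1A1 is also a marker of fibroblasts and had 6.32, 6.80 and 9.15 CPM in siYAP and 4.51, 4.78 and 6.70 CPM in siControl libraries. The part of other cells in this was not tested. The fibroblast genes DCN and COL3A1 were not listed (DCN) or did not pass 0.311 CPM (COL3A1). Among 16 genes of collagen hydroxylation and crosslinking, TGM2, a transglutaminase, had 110, 123 and 177 CPM against 134, 169 and 206 CPM in controls (-0.33 ± 0.05, adjusted p = 6.22e-06) and held in every fit, as did PLOD2. P3H2, a prolyl hydroxylase, was higher (0.20, adjusted p = 0.05) and lost its call in all 6 fits (0.16 to 0.26). Of these 16 genes 18.8% were called.

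TGF-beta response genes (22 tested) had a list median of -0.03, and 18.2% were called, against 5.68% of all genes. Among them TGFBI, a secreted adhesion protein (-0.19), and TGFB2 were lower and BAMBI, a decoy receptor, was higher (0.25). TGFBI lost its call without siYAP 2 and siControl 2 (-0.17 and -0.14), and BAMBI without siYAP 1, siControl 1 or siControl 2 (0.19 to 0.26). Among 25 metalloproteinases and inhibitors (8% called), MMP15 was lower (-0.25) and lost its call without siYAP 2 or siControl 2, at -0.23 and -0.19.

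Of the metabolic lists, 14.8% of the glycolysis and hypoxia genes were called, 20% of the LXR genes, 8.33% of the fatty acid genes and 8% of the cholesterol genes, against 5.68% of all genes. LDHA, lactate dehydrogenase, had 1073, 1155 and 738 CPM under siYAP and 1264, 1432 and 848 CPM under siControl, lower in each pair (-0.25 ± 0.04, adjusted p = 8.39e-05), and was the 1 of 4 lower genes among 27 of glycolysis and hypoxia that held in every fit. NDRG1 (-0.23), ENO1, enolase (-0.16), and PFKFB3 (-0.16) lost their calls without siYAP 2 and partly without other libraries (-0.21 to -0.12), 1 gene was called without siYAP 2, and 2 genes were called without siControl 2. Cholesterol synthesis and uptake genes had a median of 0.00, with TM7SF2 (0.15) higher and CYP51A1 (-0.21) lower of 25, and fatty acid synthesis genes a median of 0.00, with ELOVL6 (0.14) higher of 12. INSIG1, the SREBP retention protein, had 714, 530 and 493 CPM against 636, 493 and 468 CPM in controls (0.12 ± 0.04, adjusted p = 0.0749). The LXR gene NR1H3 (0.21) and its target APOE (0.38) were the 2 higher genes of 10. These 5 called genes each lost their calls in 5 or 6 fits, at 0.11 to 0.49 and -0.26 to -0.18, none being called without siYAP 2.

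Of 26 NRF2 targets 3 were higher and 2 lower (19.2% called, against 5.68% of all genes, median 0.00). GPX2, a glutathione peroxidase, had 571, 662 and 594 CPM in siYAP and 502, 570 and 509 CPM in siControl libraries (0.21 ± 0.04, adjusted p = 0.000733), and ABCC3, a drug and bile salt exporter, 670, 606 and 659 CPM against 592, 529 and 575 CPM (0.19 ± 0.04, adjusted p = 0.00148). In both the groups were apart and the call held in every fit. HMOX1, heme oxygenase, was lower at 508, 479 and 488 CPM against 583, 594 and 522 CPM (-0.20 ± 0.04, adjusted p = 0.0012), and lost its call without siYAP 2, at -0.16. TKT, transketolase, was the other lower gene (-0.13) and lost its call in 4 fits, at -0.14 to -0.12.

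Of the MYC and ribosome biogenesis genes 20% were called and of the mitochondrially encoded transcripts 15.4%, against 5.68% of all genes. Of 25 MYC and ribosome biogenesis genes 5 were lower, NOP58, WDR43, RRN3, DKC1 and NCL (-0.17 to -0.13), and 24 had values below 0 (median -0.10). None of the 5 was called without siYAP 2, 1 gene was without siControl 2, and where calls were lost the values were -0.22 to -0.10. The 13 mitochondrially encoded transcripts all had values above 0, with a median of 0.11 and pair medians of 0.08, 0.03 and 0.24, and MT-ND6 and MT-ND5 were called. These transcripts took 17.7%, 16.2% and 19.1% of reads in siYAP libraries and 16.7%, 15.7% and 16.5% in siControl libraries. MT-ND5 lost its call in all 6 fits without 1 library and MT-ND6 in 4 of them (0.07 to 0.17), and copies in the nuclear genome could share reads.

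Among signalling lists the share of genes called was 15.4% for EGF receptors and ligands, 12.5% for immediate early genes, 11.1% for NF-kB and cytokine genes and 5.71% for interferon genes, against 5.68% of all genes. Of 13 EGF receptors, ligands, AXL and MET, ERBB3 was higher (0.23) and EREG lower (-0.18), and neither was called without siYAP 2 or siControl 2 (0.19 to 0.24 and -0.21 to -0.08 where calls were lost). Of 24 immediate early genes DUSP1, a phosphatase of MAP kinases, was lower at 39.4, 48.8 and 61.9 CPM against 54.9, 56.7 and 69.9 CPM in controls (-0.27 ± 0.05, adjusted p = 0.000707, held in every fit). IER3 (-0.26) and DUSP4 (-0.13) were lower too and were not called without siYAP 2 or siControl 2 (-0.22 to -0.11). Of 27 NF-kB and cytokine genes CXCL5 (-0.28), NFKB2 (-0.26) and BIRC3 (-0.25) were lower, none of them called without siYAP 2 or siControl 2 (-0.30 to -0.15). Of 35 interferon and antigen presentation genes DDX58 (0.28) and IFI35 (0.23) were higher, and both lost their calls without siYAP 2 or siControl 2 (0.18 to 0.28). The interferon gene MX1 had 1.89, 2.47 and 14.1 CPM under siYAP and 2.19, 2.52 and 6.17 CPM under siControl (0.52 ± 0.18, adjusted p = 0.0726). Replicate 3 was far above the others in both groups and was the only pair in which the siYAP library was higher, and the median of that list was 0.18 in pair 3, against -0.06 and -0.03 in pairs 1 and 2.

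In each of several further lists no more than 2 genes passed. The share called was 4% for WNT and NOTCH genes, 6.67% for mesenchymal genes and 11.1% for ATF4 and serine synthesis genes. It was 7.69% for amino acid transporters, 6.25% for the unfolded protein response, 8.7% for lysosome genes and 40% for markers of other cells. Of all genes 5.68% were called. DKK1, a secreted WNT antagonist, had 208, 194 and 109 CPM in siYAP and 241, 279 and 137 CPM in siControl libraries (-0.36 ± 0.07, adjusted p = 0.0014), the 1 gene of 25 in the WNT and NOTCH list and of 15 in the mesenchymal list to pass. It lost its call without siYAP 2 or siControl 2, at -0.30 and -0.26. Among 18 ATF4 and serine synthesis genes PHGDH (-0.23) and PSAT1 (-0.16) were lower, and among 13 amino acid transporters SLC7A6 (-0.21). Of 16 genes of the unfolded protein response XBP1 was higher (0.16), and of 23 lysosome and autophagy genes CTSS was higher (0.19) and CTSL lower (-0.15). PHGDH, PSAT1, SLC7A6, XBP1, CTSS and CTSL were not called without siYAP 2, and where calls were lost the values were -0.28 to -0.10 and 0.11 to 0.20. All 5 markers of endothelium, fibroblasts and blood cells that passed the filter on low counts, of 9 listed, had values above 0, with a median of 0.31 and pair medians of 0.37, 0.50 and 0.22. LYZ (1.66) and COL1A1 were called higher. LYZ had 0.944, 0.628 and 0.286 CPM under siYAP and 0.133, 0.144 and 0.381 CPM under siControl, lower in pair 3, and lost its call in 4 fits, at 1.06 to 1.69.

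How the YAP knockdown differed from a TAZ knockdown in the same cells was tested directly. Of the 16008 genes 1127 (7.04%) differed between siYAP and siTAZ libraries, 403 higher and 724 lower in siYAP. WWTR1 was higher under siYAP (158, 162 and 153 CPM, against 70.7, 50.9 and 51.6 CPM under siTAZ, 1.47 ± 0.06) and YAP1 lower (17, 15.5 and 19.5 CPM against 58.4, 58.9 and 62.7 CPM, -1.82 ± 0.06). Next came ANKRD1, with 6.51, 6.59 and 20.7 CPM under siYAP and 3.97, 2.15 and 7.78 CPM under siTAZ, higher in each pair (1.31 ± 0.11, adjusted p = 1.91e-10). WISP2, another CCN family member (0.82 ± 0.07), TFPI2 (0.67 ± 0.05) and C1orf116 (0.66 ± 0.08) were also higher under siYAP.

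The signature genes CYR61 (0.53, adjusted p = 4.66e-05), CTGF (0.63, adjusted p = 0.000259), AMOTL2 (0.37, adjusted p = 0.000217) and MYOF (0.17, adjusted p = 0.0046) were higher in siYAP than in siTAZ libraries as well. AMOTL2, for one, had 31.3, 33.3 and 44.0 CPM under siYAP and 27.4, 25.6 and 30.8 CPM under siTAZ. Lower under siYAP than under siTAZ were EIF4EBP2, with 35.2, 37.4 and 52.0 CPM against 60.3, 73.7 and 79.8 CPM and no overlap (-0.80 ± 0.05, adjusted p = 2.23e-13), PLOD2 (-0.40), COMMD8 (-0.51) and GNB4 (-0.46). TCN1, a vitamin B12 carrier, had 4.62, 6.02 and 5.83 CPM against 9.62, 12.2 and 12.3 CPM under siTAZ (-1.03 ± 0.10), near its 5.64, 5.94 and 6.01 CPM under siControl. SLC4A8, a bicarbonate transporter (-0.87 ± 0.12), and MMP2, a gelatinase (-0.79 ± 0.09), were lower than under siTAZ likewise. Against siControl, in the authors' own comparison, SLC4A8 (0.22), MMP2 (0.06), WISP2 (-0.12) and C1orf116 (-0.16) did not pass. The genes that separate siYAP from siTAZ libraries did not include CCNB1 (-0.02) or RRM2 (0.07), with adjusted p of 0.853 and 0.541. Without siYAP 2, 93 genes were higher and 215 lower, without siTAZ 2, 124 and 312, and without siYAP 3, 219 and 439, and without the block 1 and 1.

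Whether the response to the pool was particular to A549 was examined against H1299, where the same pool called 4461 of 15775 genes (28.3%). Of the 485 genes lower in A549 and tested in both lines, 365 were lower in H1299 too, which is 75.3% of them, against 16.1% of all 14027 genes. These 365 were 16.2% of the 2253 genes lower in H1299, while 3.46% of all genes were lower in A549. Another 10 (2.06%) were higher in H1299, against 13.8% of all genes. Of the 301 higher genes 157 were higher in H1299, which is 52.2% of them, against the same 13.8%. These 157 were 8.12% of the 1933 genes higher in H1299, while 2.15% of all genes were higher in A549, and 8 (2.66%) were lower in H1299, against 16.1% of all genes. YAP1 changed by -1.78 ± 0.06 in A549 and by -2.49 ± 0.11 in H1299. PLOD2, COMMD8 and EIF4EBP2 changed by -0.63, -0.60 and -0.60 in A549 and by -1.70, -1.53 and -1.15 in H1299.

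The difference itself was tested in a fit of both lines: 1712 of 15816 genes (10.8%) had a different siYAP effect, 960 with a higher value in A549 (6.07%) and 752 with a lower one (4.75%). The count depended on the libraries, with 449 to 1537 higher and 331 to 1451 lower when 1 was left out, lowest without A549 siYAP 2 (higher) and H1299 siControl 1 (lower) and highest without H1299 siYAP 2. Leaving out H1299 siYAP 3 was the only removal that kept both counts within 1.5 times, at 761 and 544, and without the block 8 and 5 genes passed. Among the mitosis genes 44 of 48 differed, all with the smaller decrease in A549 (list medians -0.27 in A549 and -1.04 in H1299), and CCNB1 is one of them, at -0.31 ± 0.05 against -1.22 in H1299 (difference 0.92, adjusted p = 0.00101). Of the replication genes 11 of 46 differed the same way (medians -0.26 and -0.51). Cholesterol genes had medians of 0.00 in A549 and -0.53 in H1299, and 20 of the differences between lines passed, 19 of them with the higher value in A549.

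Signature genes differed between the lines in both directions. IGFBP3 stood at -0.0016 in A549 and at -1.11 in H1299 (difference 1.11, adjusted p = 0.000218), CYR61 -0.51 and -1.32 (difference 0.81, adjusted p = 0.036), and CCDC80 0.13 and 0.74 (difference -0.62, adjusted p = 0.00198). Of 21 signature genes tested for it 5 had a higher value in A549 and 1 a lower one. MYOF (-0.26 and -0.15), AMOTL2 (-0.52 and -0.42) and AJUBA (-0.49 and -0.11) did not pass a test of the difference (adjusted p = 0.435, 0.704 and 0.0596). CAVIN1 did, with a decrease in A549 (-0.34) and a value of -0.04 in H1299 (difference -0.30, adjusted p = 0.0422), and so did HMOX1 (-0.20 and 0.26, difference -0.46, adjusted p = 0.0124).

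**Figure D5:**
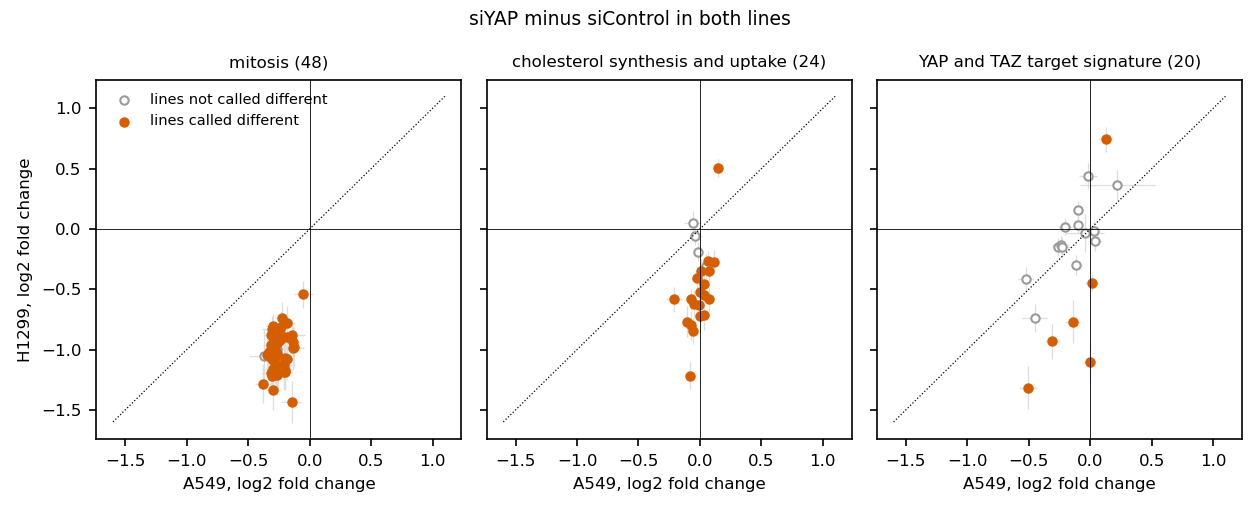
Log2 fold change (siYAP minus siControl) in A549 against that in H1299 for genes of 3 lists, with standard errors as grey bars; orange points differed between lines at an adjusted p of 0.05, and the dotted line marks equal values. Mitosis genes lie near -0.27 in A549 and near -1.04 in H1299, and cholesterol genes near 0.00 and -0.53.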

How the data were processed

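PolyA RNA of 18 libraries was sequenced. Per the submitters' processing notes, the authors used cutadapt, STAR 2.4.2a and DESeq2 with GRCh38; the counting tool, annotation and strand use were not given in the sources used here. Tables deposited by the authors hold raw read counts per gene and library, and, from the authors' own comparisons, a mean normalized signal per gene, log2 fold changes and p-values. The authors' deposited table has 278 genes at an adjusted p-value below 0.05 for A549 siYAP against siControl, and a DESeq2 refit with the replicate term gave its log2 values within 0.001 for 99.99% of genes.

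Counts of the 9 A549 libraries were fitted with edgeR 4.0.16 (R 4.3.3; TMM, filterByExpr with a minimum count of 10, quasi-likelihood test, Benjamini-Hochberg over 16008 genes, calls below 0.05), with siRNA group and replicate number as terms. SE is the fold change divided by the root of F. CPM are TMM-scaled, save the ranges given for KRT8, CDKN2A, EPCAM, NAPSA, CD68, CD14 and COL3A1 and the summed markers. Those are scaled to the library total alone. Pair differences use a prior count of 2. The line difference came from 1 fit of 18 libraries with replicate terms within each line. The numbers pair the libraries: all 9 same-number correlations lay between 0.384 and 0.729 (median 0.528). Alternatives were DESeq2 1.42.0, other size factors, filters, thinned counts, 6 libraries alone, no block and each library left out. Replicates differed by more than sampling noise (chi-square per degree of freedom 6.35 to 27.5). Coordinates are from GENCODE 29, matched by symbol (97.9%).

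Named genes were YAP1, WWTR1, the 12 largest changes in each direction (mean of at least 5 CPM, each pair alike), up to 8 by mean CPM at 1.5-fold or more, 4 members per list by p, all members of the target and TEAD lists, and 5 per direction for siTAZ and the line difference; others are said to be chosen later. A few results under this rule are not reported here. The members, the 36 lists and the tests were chosen with earlier results of these data known.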

Additional observations from a re-analysis of the deposited data

Results flagged for a closer look

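The siYAP effect differed between A549 and H1299 for 1712 genes in the test of the difference itself. The 5 protein-coding genes with the largest value in each direction follow, as A549 minus H1299 on the log2 scale, and without the replicate block COL4A6 was the only one of the 10 still called.

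Of those with the higher value in A549, TGFBI, a secreted adhesion protein, differed by 1.39, with 893, 926 and 1435 CPM in A549 siYAP against 1032, 1136 and 1520 CPM in A549 siControl, and 1.88, 5.62 and 1.08 CPM in H1299 siYAP against 7.89, 12.9 and 4.57 CPM in H1299 siControl libraries. MEIOB, a meiotic DNA-binding protein, differed by 1.57. Both were called whichever library was left out. RASSF10 differed by 1.69, ALDOC, an aldolase, by 1.67, and ADAMTS6, a metalloproteinase, by 1.62. RASSF10 did not pass 0.437 CPM and ALDOC 1.18 CPM in any H1299 siYAP or siControl library, and ADAMTS6 did not pass 0.788 CPM in those of A549. RASSF10 lost its call in 9 of the removals of 1 library (1.25 to 1.98), ALDOC without H1299 siYAP 3 (1.22) or siControl 3 (1.32), and ADAMTS6 without A549 siYAP 2, siYAP 3, siControl 2 or siControl 3 (1.56 to 1.71).

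Of those with the lower value in A549, UNC13A, a protein of vesicle release, differed by -1.61, CD22, a B cell lectin, by -1.65, and COL4A6, a basement membrane collagen, by -2.45, and these were called whichever library was left out. COL4A6 did not pass 1.34 CPM in H1299 siYAP or siControl libraries. TGFB1I1, a focal adhesion protein, differed by -3.03 with at most 0.304 CPM in H1299, and was not called without H1299 siYAP 1, siYAP 3, siControl 1 or siControl 3 (-4.59 to -2.56) or by DESeq2. SLC30A1, a zinc exporter, differed by -2.43. It had 245.8 CPM in H1299 siYAP 1, against 13.5 and 21.0 CPM in the other H1299 siYAP libraries and 11.5 to 14.5 CPM in H1299 siControl, and without H1299 siYAP 1 the value was -0.64. It lost its call in 9 of the removals of 1 library and was not called by DESeq2.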

How the results depend on the processing

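For siYAP against siControl, 401 higher and 508 lower genes became 0 and 1 without the replicate block, although the numbers pair the libraries, 92 and 271 with DESeq2 and 168 and 280 with thinned libraries. Leaving out 1 library gave 51 to 351 higher and 113 to 526 lower, and leaving out replicate number 1, 2 or 3 in all groups gave 107, 50 and 311 higher and 213, 107 and 428 lower. For siYAP against siTAZ the counts were 1 and 1 without the block, 138 and 380 with DESeq2, and 93 to 321 and 215 to 620 with 1 library left out. For the line difference they were 8 and 5 without the block and 449 to 1537 and 331 to 1451 with 1 library left out. YAP1 stayed between -1.87 and -1.68 in every alternative run. The cause of these moves was not tested beyond the thinning and the removals.

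Among the values recomputed, changes of sign were confined to 14 list members that were not called in the main comparison. Without the replicate block the values were 0.021 for F3, 0.038 for FJX1, -0.0087 for GADD45A and 0.0045 for IGFBP3. With thinned libraries they were -0.014 for ASAP1, 0.0098 for F3, 0.084 for FJX1 and 0.015 for IGFBP3. With DESeq2 they were 0.0072 for FJX1 and -0.0083 for GADD45A. With a replicate number left out of all groups they were 0.090 for BCL2 without number 2, -0.012 for CD14 without number 3, 0.22 for F3 without number 2, 0.18 for FJX1 without number 2, -0.074 for GADD45A without number 2, 0.043 for IGFBP3 without number 2, 0.012 for IGFBP3 without number 3, -0.26 for LUM without number 2, -0.050 for MX1 without number 3, -0.021 for NT5E without number 1, -0.047 for RBMS3 without number 2, -0.0074 for SREBF1 without number 3, 0.058 for TEAD2 without number 2 and -0.025 for VGLL4 without number 2. With 1 library left out the values ran from -0.46 to 0.085 for BCL2, -0.0077 to 0.15 for CD14, -0.20 to 0.21 for F3, -0.11 to 0.17 for FJX1, -0.085 to 0.068 for GADD45A, -0.061 to 0.061 for IGFBP3, -0.21 to 0.96 for LUM, -0.041 to 0.95 for MX1, -0.023 to 0.11 for NT5E, -0.038 to 0.60 for RBMS3, -0.016 to 0.066 for SREBF1, -0.12 to 0.039 for TEAD2 and -0.059 to 0.090 for VGLL4.

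The 3 libraries per group and the 10.7 M reads of the smallest library limit calls among genes with few reads, and most changes are smaller than 1.5-fold. Genes that overlap another gene (67.0% of those called) could share its reads.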
